A study of Mus musculus with 29 samples.

Results

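The fibrillar collagen genes described here were 7 of the 24770 gene rows of the count table, chosen by symbol as Col1a1, Col1a2, Col3a1, Col5a1, Col5a2, Col5a3 and Col11a1. They were followed in bulk RNA-seq of brown adipose tissue (BAT) and of skeletal muscle (SkM, the gastrocnemius) from wild-type male C57BL/6J mice. All mice were 8 weeks old at the start and were studied for 8 weeks. Control mice were sedentary and ate freely. Calorie restriction (CR) mice were sedentary and had their food lowered stepwise to 70 percent of free intake, exercise training (EX) mice ran on a treadmill and ate freely, and CREX mice had both treatments. Every group was fasted for 6 h before harvest, which came 24 h after the last run. The BAT libraries numbered 3 control, 4 CR, 4 EX and 4 CREX, and the SkM libraries 4 control, 3 CR, 4 EX and 3 CREX. The labels do not say which BAT and SkM libraries came from the same mouse.

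Fibrillar collagens are secreted as procollagens whose ends are trimmed outside the cell, after which the rods pack side by side into the fibrils that give tissue its tensile strength. Type I collagen, built from the chains of Col1a1 and Col1a2, forms the bulk of most fibrils. Type III collagen, from Col3a1, is mixed into the fibrils of pliable tissues such as fat septa, vessel walls and the sheaths around muscle fibres. Type V (Col5a1, Col5a2 and Col5a3) and type XI (Col11a1) are minor partners that help to start fibrils and set their width. Fibroblasts and related stromal cells are the main source. In bulk tissue, fewer such cells and less RNA per cell cannot be told apart.

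In the GENCODE M21 annotation of GRCm38, Col3a1 lies on the plus strand at chr1:45311538-45349706 and Col5a2 on the minus strand at chr1:45374321-45503282, so that their 3′ ends face each other across 24614 bases. Col5a1 lies at chr2:27886425-28039514, Col11a1 at chr3:114030540-114220718, Col1a2 at chr6:4504814-4541544, Col5a3 at chr9:20770050-20815067 and Col1a1 at chr11:94936224-94953042. Of these, Col5a3 alone is on the minus strand. The 7 genes had 51 to 67 exons each and merged exon lengths of 5.35 to 8.41 kb. The span of Col5a1 overlaps 2 annotated antisense transcripts, and the RSEM command in the study's methods sets no strand option. Reads from any exon bases that they share could not be told apart by strand. Whether their exons overlap was not checked.

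The RefSeq promoter table (GRCm38.p6) held 5 of the 7 genes. The bases before the first annotated start are shown for Col3a1, Col5a1 and Col5a3, which all fell with CR in both tissues. Across libraries Col3a1 and Col5a1 followed type I collagen closely, and Col5a3 followed the others least closely. Capitals mark matches on either strand to the CCAAT box, the TATA box (TATAAA), the GC box (GGGCGG), the AP-1 site (TGANTCA) and the Smad element (CAGAC), and to the glucocorticoid response element.
Col3a1 (chr1:45311288-45311537, plus strand): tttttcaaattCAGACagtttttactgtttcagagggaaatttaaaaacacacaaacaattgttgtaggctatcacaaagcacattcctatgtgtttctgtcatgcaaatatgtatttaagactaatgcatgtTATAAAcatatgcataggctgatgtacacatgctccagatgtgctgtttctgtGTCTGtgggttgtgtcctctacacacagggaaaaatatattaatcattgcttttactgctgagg
Col5a1 (chr2:27886175-27886380, plus strand): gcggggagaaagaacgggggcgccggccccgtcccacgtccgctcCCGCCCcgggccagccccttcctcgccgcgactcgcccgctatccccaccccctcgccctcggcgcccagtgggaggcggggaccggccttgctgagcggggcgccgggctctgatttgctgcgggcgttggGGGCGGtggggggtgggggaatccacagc
Col5a3 (chr9:20815118-20815317, minus strand): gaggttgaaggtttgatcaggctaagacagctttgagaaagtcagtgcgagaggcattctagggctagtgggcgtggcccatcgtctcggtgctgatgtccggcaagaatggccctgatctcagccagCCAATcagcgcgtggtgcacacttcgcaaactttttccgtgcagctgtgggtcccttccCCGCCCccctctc
The Col3a1 stretch was 35.2% G and C and held the TATA box and 2 Smad elements, whereas the Col5a1 stretch was 77.7% G and C and held 2 GC boxes. The Col5a3 stretch was 58.0% G and C and held a CCAAT box and a GC box. Of 32851 promoters of 300 bases in the table, 37.4% held the CCAAT box, 13.6% the TATA box, 35.7% the GC box, 7.81% the AP-1 site and 49.6% the Smad element. None of these 5 was found in the 300-base promoters of all 5 genes, and the AP-1 site was in none of them. The glucocorticoid response element was in 0.00913% of promoters and in 0 of the 5.

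Libraries held 21047242 to 24919377 counts in BAT and 23050918 to 23425284 in SkM. CPM values are counts divided by the library's total, after TMM adjusted that total between libraries, and scaled. Ucp1, the uncoupling protein of brown fat, ran from 1366 to 4740 CPM in BAT against 0 to 0.139 CPM in SkM. Acta1, skeletal muscle actin, ran from 21954 to 45921 CPM in SkM against 0.740 to 1835 CPM in BAT. The BAT libraries thus differed widely in muscle RNA. The library labelled BAT EX replicate 3 stood apart from the other EX libraries of BAT. It was the highest BAT library for 6 of the 7 collagen genes, 11 of 13 fibril-binding proteins and 8 of 10 fibroblast markers. The same held for 6 of 8 tendon markers and 5 of 6 macrophage markers. It held for 0 of 8 brown adipocyte markers, 0 of 6 endothelial markers and 1 of 10 muscle fibre markers. Fmod and Comp are in both the fibril-binding and the tendon lists. The tendon marker Mkx was at 0.0822 CPM, under the counting floor of 0.120 to 0.143 CPM given below. The 8 fibroblast markers were 1.17-fold (Ly6a) to 6.09-fold (Mfap5) above the mean of the other EX libraries. The share of all genes for which this library was highest was not counted, so whether these counts are unusual was not tested. Its muscle fibre markers summed to 3696 CPM, against 1129, 3555 and 6.38 CPM in EX replicates 1, 2 and 4. Of 11902 genes with a mean of at least 1 CPM, 359 (3.02%) were in EX replicate 3 more than 2-fold above the mean of the other EX libraries. The genes raised most, picked by their values, were led by the embryonic and perinatal myosins Myh8 (72.4 CPM against at most 0.0460) and Myh3 (104 CPM against at most 0.414). Results on BAT EX are given with and without this library.

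Per kilobase of exon, type III was the most abundant member in BAT of control mice, with 18.8 ± 3.41 CPM per kb for Col3a1 (SD, n = 3). Type I came next, with 8.85 ± 1.18 CPM per kb for Col1a2 and 5.34 ± 0.779 for Col1a1. Col5a3 followed at 4.36 ± 0.156 CPM per kb, then Col5a2 at 1.68 ± 0.229 and Col5a1 at 1.59 ± 0.260. The libraries of Col5a2 and Col5a1 overlapped, and all other neighbours in that order were apart. Control SkM (n = 4) had the order Col3a1 (11.3 ± 1.23 CPM per kb), Col1a2 (8.31 ± 1.12), Col1a1 (5.63 ± 1.03), Col5a3 (3.13 ± 0.426), Col5a1 (1.71 ± 0.288) and Col5a2 (1.5 ± 0.240), where again only Col5a1 and Col5a2 overlapped. Col11a1 stood last in both tissues, at 0.00897 ± 0.00283 CPM per kb in BAT and 0.0342 ± 0.0220 in SkM.

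**Figure D1:**
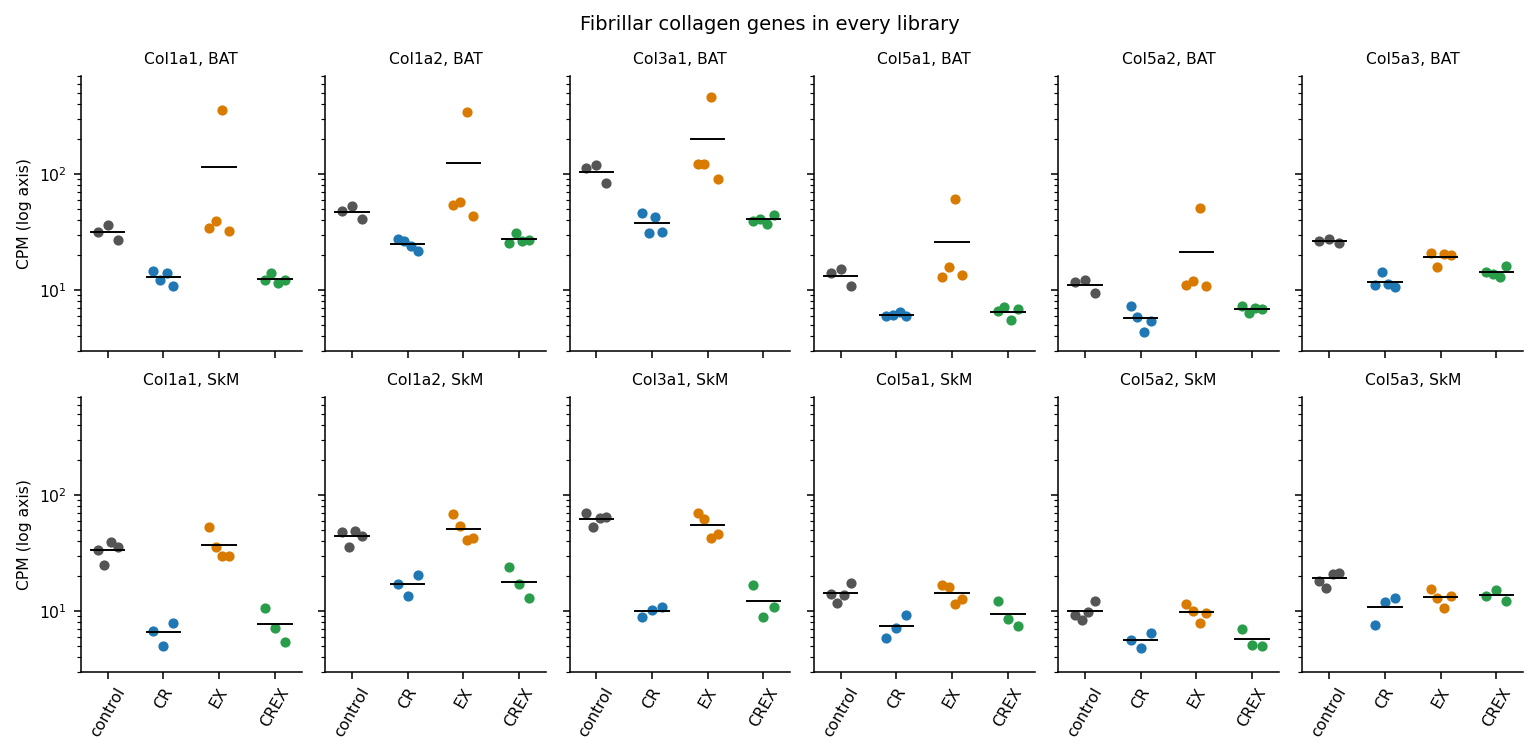
Each point is the level of 1 gene in 1 library, in CPM on a log axis, for the 4 groups of BAT (top) and SkM (bottom), and bars mark group means. In BAT the CR and CREX points of the 5 genes from Col1a1 to Col5a2 lie below all control and EX points, and 1 EX point, replicate 3, lies far above the rest. In SkM the largest gaps are those of Col1a1 and Col3a1.

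CR against control asked what food restriction alone did. In BAT, 6 of the 7 genes could be tested and all 6 were called lower, where a call is an adjusted p under 0.05 with a fold of more than 1.5 in edgeR's quasi-likelihood test. Over all 13323 genes tested, 6.86% were called lower. All 6 also had every CR library below every control library, which 17.0% of all genes tested did. Their median log2 fold change was −1.15, against 0.0045 over all genes. When all 4 BAT groups shared 1 fit, which lets EX replicate 3 into the estimate of the spread, 2 of the 6 were called, and 6 again when that library was left out of it.

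Type I collagen fell in BAT. Col1a1 was at 31.5, 36.4 and 27.2 CPM in the 3 control libraries and at 14.5, 12.3, 14.0 and 10.9 CPM in the 4 CR libraries, and the groups did not overlap. Its log2 fold change was −1.29 (SE 0.12, adjusted p = 1.4e-04), or 2.45-fold lower. Col1a2 was at 47.7, 53.5 and 40.9 CPM in control and at 27.3, 26.3, 23.8 and 21.5 CPM in CR. It fell less, by 0.93 on the log2 scale (SE 0.10, adjusted p = 3.2e-04).

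Type III collagen had the largest log2 fold change of the tested members in BAT, although the members were not tested against each other. Col3a1 was at 112, 119 and 83.2 CPM in control BAT and at 46.1, 31.2, 42.4 and 31.8 CPM in CR. The log2 fold change was −1.47 (SE 0.17, adjusted p = 0.00139), or 2.76-fold lower.

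The type V genes fell as well. Col5a1, whose chain is part of nearly every type V molecule, was at 14.0, 15.1 and 10.9 CPM in control and at 5.97, 6.15, 6.41 and 5.99 CPM in CR, a log2 fold change of −1.12 (SE 0.12, adjusted p = 2.7e-04). The CR libraries were close together and well apart from control. Col5a2 was at 11.8, 12.2 and 9.37 CPM in control and at 7.27, 5.86, 4.35 and 5.36 CPM in CR (log2 −0.96, SE 0.16, adjusted p = 0.00307). Col5a3 was at 26.6, 27.6 and 25.7 CPM in control and at 11, 14.3, 11.2 and 10.6 CPM in CR (log2 −1.18, SE 0.10, adjusted p = 1.1e-04). Col11a1 was not tested. It had 1 to 2 counts in the control libraries and 2 to 4 in CR, at or near the floor of 3 counts. That floor was 0.120 to 0.143 CPM in BAT by the unadjusted totals, and covers counting error only.

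SkM showed the same 6 genes lower in CR. All 6 were called lower, against 5.32% of the 13173 genes tested, and in all 6 the groups did not overlap, which 14.5% of all genes did not in this direction. Col1a1 was at 33.7, 24.9, 39.3 and 35.7 CPM in control and at 6.80, 5.01 and 7.93 CPM in CR, a log2 fold change of −2.33 (SE 0.20, adjusted p = 1.3e-04), or 5.04-fold lower. Col1a2 was at 47.7, 36.0, 49.5 and 44.5 CPM in control and at 17.3, 13.5 and 20.4 CPM in CR (log2 −1.37, SE 0.16, adjusted p = 7.5e-04). Type I was thus lowered in both chains, Col1a1 further than Col1a2.

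Col3a1 had the largest log2 fold change in SkM as it had in BAT, again with no test against the other members. It was at 69.9, 53.5, 63.3 and 64.6 CPM in control and at 8.93, 10.3 and 10.9 CPM in CR. The log2 fold change was −2.63 (SE 0.13, adjusted p = 9.5e-06), or 6.21-fold lower. In CR SkM the per-length level of Col3a1, 1.81 ± 0.183 CPM per kb (n = 3), was below that of Col1a2, 3.19 ± 0.641, the reverse of their order in control.

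Within SkM the type V genes had smaller log2 fold changes than the type I and type III genes. Col5a1 was at 14.1, 11.8, 13.9 and 17.6 CPM in control and at 5.91, 7.20 and 9.22 CPM in CR (log2 −0.94, SE 0.18, adjusted p = 0.00751). Col5a2 was at 9.35, 8.43, 9.82 and 12.2 CPM in control and at 5.64, 4.77 and 6.49 CPM in CR (log2 −0.81, SE 0.16, adjusted p = 0.00907). Col5a3 was at 18.1, 15.9, 21.1 and 21.4 CPM in control and at 7.55, 12.0 and 13 CPM in CR (log2 −0.80, SE 0.19, adjusted p = 0.0177), and without control replicate 3 its adjusted p was 0.0587. Col11a1 had 2 to 12 counts in control and 2 to 16 in CR, and was not tested.

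CREX against EX asked the same of trained mice. In BAT, edgeR called 0 of 6 members, against 2.63% of 13251 genes called lower, and DESeq2 called 3. All 6 had an unadjusted p under 0.05, as did 25.6% of the genes tested. In 5 of the 6 every CREX library lay below every EX library, as did 9.27% of all genes. Leaving out EX replicate 3 gave 5 members called lower, against 1.73% of the genes tested there.

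Col1a1 was at 34.6, 39.3, 355 and 32.4 CPM in BAT EX and at 12.2, 13.9, 11.5 and 12.3 CPM in CREX. With all libraries the log2 fold change was −3.21 (SE 0.99, adjusted p = 0.107), and without EX replicate 3 it was −1.51 (SE 0.10, adjusted p = 4.7e-04). Col3a1 was at 123, 121, 461 and 91.2 CPM in EX and at 39.7, 41.3, 37.4 and 44.5 CPM in CREX, and went from −2.29 (SE 0.57, adjusted p = 0.0617) to −1.46 (SE 0.11, adjusted p = 0.00108) when that library was left out. Col1a2, Col5a1 and Col5a2 went likewise to −0.92, −1.10 and −0.71, each called. Col5a3 was at 20.7, 15.8, 20.5 and 20.2 CPM in EX and at 14.3, 13.8, 12.9 and 16.1 CPM in CREX, with a log2 fold change of −0.44 (SE 0.11, adjusted p = 0.0349) that was under the fold minimum. EX replicate 3 was 10-fold above the mean of the other EX libraries for Col1a1, 6.67-fold for Col1a2 and 4.11-fold for Col3a1, but 1.08-fold for Col5a3. Muscle fibre markers summed to 6.38 to 3696 CPM in EX and 942 to 5801 CPM in CREX, and with their score in the fit 1 member was called. Their part in the result was not tested further.

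In SkM, CREX was below EX in 4 of 6 members called, against 5.17% of 13112 genes called lower, and the same 4 did not overlap, as did 14.6% of all genes in this direction. Col1a1 was at 53.4, 36.0, 29.8 and 29.7 CPM in EX and at 10.6, 7.17 and 5.46 CPM in CREX (log2 −2.27, SE 0.31, adjusted p = 0.00811). Col1a2 was at 68.4, 53.8, 41.1 and 42.4 CPM in EX and at 23.9, 17.1 and 12.9 CPM in CREX (log2 −1.52, SE 0.26, adjusted p = 0.0126). Col3a1 was at 70.5, 62.5, 43.1 and 46.3 CPM in EX and at 16.7, 8.95 and 10.8 CPM in CREX (log2 −2.20, SE 0.27, adjusted p = 0.00592). In all 3 genes EX replicate 1 was the highest EX library and CREX replicate 1 the highest CREX library.

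Among the type V genes of SkM, Col5a2 was lower in CREX (log2 −0.78, SE 0.18, adjusted p = 0.0224), a call that was lost in 5 of 7 fits that left out 1 library (adjusted p of 0.0504 without EX replicate 4 to 0.0886 without CREX replicate 2) and kept without CREX replicate 1 or EX replicate 3. Col5a1 was at 16.7, 16.1, 11.5 and 12.7 CPM in EX and at 12.2, 8.62 and 7.44 CPM in CREX, and did not pass in edgeR (log2 −0.60, SE 0.20, adjusted p = 0.0782). It was called by DESeq2 (adjusted p = 0.0480), by 1 edgeR fit on all SkM groups (adjusted p = 0.0473) and without CREX replicate 1 (log2 −0.85, adjusted p = 0.00379). Col5a3 was at 15.6, 13, 10.6 and 13.4 CPM in EX and at 13.5, 15.3 and 12.2 CPM in CREX, with a log2 difference of 0.044 whose interval of 2 SE ran from −0.24 to 0.32. Col11a1 had 19, 6, 16 and 7 counts in EX and 2, 2 and 3 in CREX and was left out of the main fit as too low. It was called lower by DESeq2 (adjusted p = 0.0182), with no filter, in the fit on all groups and without CREX replicate 1, and where a filter on low counts was used it passed only through its high libraries.

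Tendon markers moved in this comparison too, with 5 of 7 tested called lower and 1 higher (median log2 −2.26). Their summed level was 55.0 to 88.3 CPM in EX and 23.9 to 158 CPM in CREX, with up to 2 of 8 at 0 in a library. With a tendon marker score in the fit, made from Scx, Tnmd, Mkx and Thbs4 only, 0 members and 0 of all genes were called. The log2 fold changes were then −2.18 for Col1a1, −1.64 for Col1a2, −2.21 for Col3a1 and −0.80 for Col5a2 (adjusted p of 0.234 to 0.381). These were close to those without the score. Without CREX replicate 2, 2 members were called, Col1a1 and Col3a1. Endothelial markers summed to 250.4 to 309 CPM in EX and 112 to 223 CPM in CREX, with 2 of 6 called lower (Cdh5 −0.96, Emcn −1.0). Fibroblast markers summed to 409 to 603 and 493 to 592 CPM, with 3 of 10 lower (Thy1 −1.65, Fap −1.03, Cd34 −0.61). The part of these cells in the result was not tested.

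**Figure D2:**
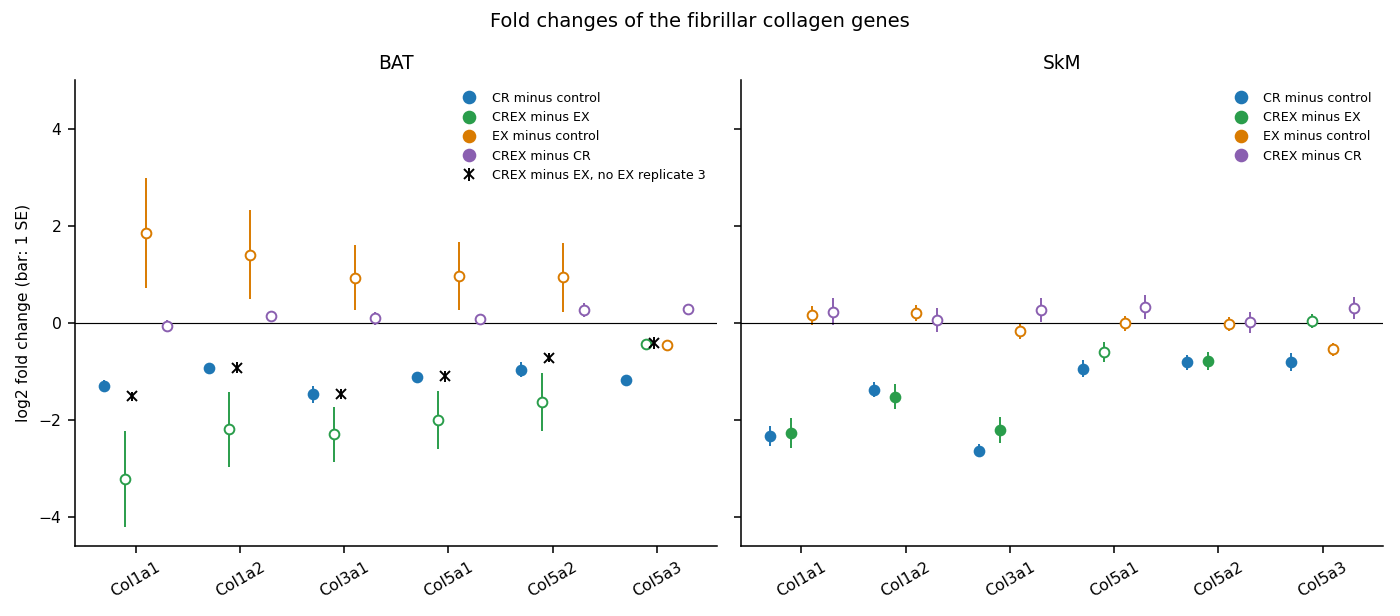
Log2 fold changes of the 6 tested genes with bars of 1 SE, for 4 comparisons in BAT (left) and SkM (right). Filled circles passed the test and open circles did not. Crosses show CREX minus EX in BAT without EX replicate 3, which lie between −1.51 and −0.41 with short bars.

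EX against control asked what training alone did. In BAT edgeR and DESeq2 each called 0 members, and edgeR called 0% of 13407 genes in either direction. An unadjusted p under 0.05 was reached by 1 member and by 7.25% of the genes. That member was Col5a3, at 26.6, 27.6 and 25.7 CPM in control and at 20.7, 15.8, 20.5 and 20.2 CPM in EX, a log2 fold change of −0.46 (SE 0.0998, adjusted p = 0.345). Its EX libraries all lay below control, as did 4.66% of all genes. The other 5 members had log2 fold changes of 0.93 to 1.86 with SEs of 0.67 to 1.13. Without EX replicate 3 these were 0.024 for Col5a2 to 0.16 for Col1a1, and Col5a3 was −0.49 (adjusted p = 0.509). In SkM Col5a3 was at 15.6, 13, 10.6 and 13.4 CPM in EX, below all 4 control libraries, as were 2.38% of all genes, with a log2 fold change of −0.54 (SE 0.13, adjusted p = 0.173). Both tools called 0 members there, and edgeR called 0.0775% of 12907 genes. Col5a3 was the 1 member at an unadjusted p under 0.05, where 6.85% of the genes were. The other 5 members ran from −0.17 to 0.21. Across the alternatives the adjusted p of Col5a3 reached 0.0374 in BAT and 0.0286 in SkM, without a call in either tissue. In BAT its log2 fold change stayed at −0.50 to −0.38, under the fold minimum.

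CREX against CR asked what training added under restriction. In BAT edgeR and DESeq2 called 0 members, and edgeR called 0.00763% of 13112 genes. An unadjusted p under 0.05 was found for 1 member, Col5a3, and for 7.63% of the genes. Log2 fold changes ran from −0.054 for Col1a1 (2 SE interval −0.27 to 0.16) to 0.28 for Col5a3 (0.052 to 0.50). In SkM both tools called 0 members and edgeR 0% of 13068 genes, with 0 members and 3.65% of the genes at an unadjusted p under 0.05. There Col3a1 was 0.27 (−0.22 to 0.75) and Col1a1 0.23 (−0.33 to 0.80). Intervals of this width do not show that the groups were alike.

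The CR effect in trained mice was set against that in sedentary mice by an interaction term. In BAT edgeR and DESeq2 called 0 members and edgeR 0% of 13922 genes, with 1 member and 5.75% of the genes at an unadjusted p under 0.05. Col5a3 had the smallest p, with a trained-minus-sedentary difference of 0.74 (SE 0.16, adjusted p = 0.513) and of 0.77 (adjusted p = 0.647) without EX replicate 3. For Col1a1 it was −1.92 (SE 1.04) with all libraries and −0.21 without EX replicate 3. In SkM both tools called 0 members and edgeR 0% of 13610 genes, with 2 of 7 members and 4.92% of the genes at an unadjusted p under 0.05. Col5a3 again had the smallest p of the members (0.87, SE 0.25, adjusted p = 0.941). The other was Col11a1 (−2.63, SE 1.05, adjusted p = 0.941), which had 2 to 19 counts a library and was tested through those where it was high. These terms share their libraries with the comparisons above.

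The fall in sedentary mice was larger in SkM than in BAT for Col1a1 and Col3a1. BAT-minus-SkM differences of the log2 fold change were 1.05 for Col1a1 (SE 0.25, adjusted p = 0.0170) and 1.18 for Col3a1 (SE 0.23, adjusted p = 0.00558), and 3.04% of 14369 genes were called higher. The calls stood under every alternative tried, with an adjusted p of at most 0.0488 for Col1a1, close to the threshold, and 0.0160 for Col3a1. For Col1a2 the difference was 0.44 (adjusted p = 0.199) and for Col5a3 −0.37 (adjusted p = 0.350). It was −0.17 for Col5a1 (adjusted p = 0.707) and −0.14 for Col5a2 (adjusted p = 0.776), so that no type V gene was called. In trained mice edgeR and DESeq2 called 0 members in this difference, and edgeR called 4.57% of 14410 genes in either direction. An unadjusted p under 0.05 was found for 1 member, Col5a3, and for 22.2% of the genes. The fits took the libraries as independent, although some of the mice may have given both tissues.

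Ratios within a library, which need no scaling between libraries, showed how unevenly the chains fell. The ratio of Col1a2 to Col1a1 counts was 1.47 to 1.51 in control BAT and 1.70 to 2.15 in CR, with 2.10 to 2.28 in CREX. In EX it was 0.974 to 1.57, where 0.974 was replicate 3. In SkM it was 1.25 to 1.44 in control and 2.55 to 2.7 in CR, and 1.28 to 1.49 in EX against 2.24 to 2.38 in CREX. No CR or CREX library of either tissue came within the range of its non-restricted counterpart. The ratio of Col5a1 to Col1a1 was 0.354 to 0.494 in control SkM, 0.869 to 1.44 in CR, 0.314 to 0.446 in EX and 1.15 to 1.36 in CREX, while in BAT it was 0.401 to 0.445 in control, 0.412 to 0.549 in CR, 0.173 to 0.417 in EX, with replicate 3 the lowest, and 0.480 to 0.563 in CREX. Col3a1 to Col1a1 overlapped between control and CR in both tissues (3.06 to 3.57 and 2.55 to 3.18 in BAT, 1.61 to 2.15 and 1.31 to 2.05 in SkM). These ratios are descriptions without a test.

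**Figure D3:**
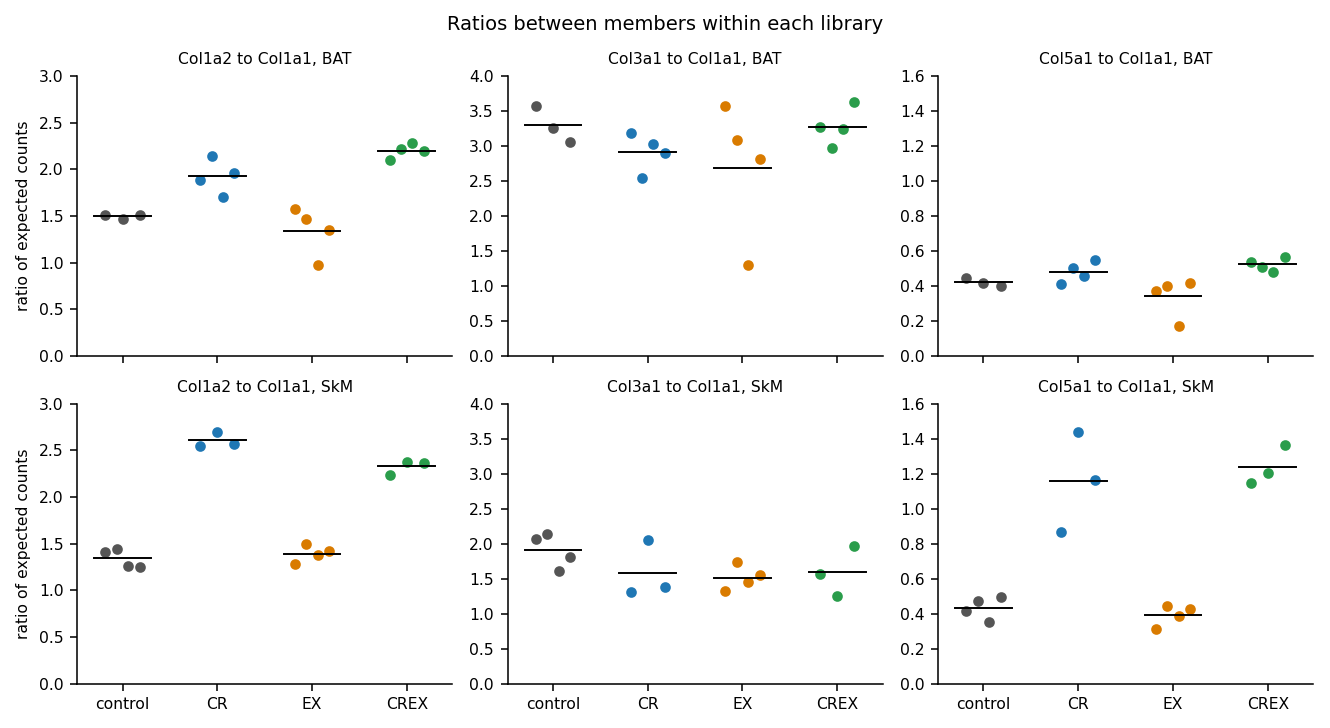
Ratios of expected counts between 2 genes in each library (points) with group means (bars), on axes that start at 0, for BAT (top) and SkM (bottom). The ratio of Col1a2 to Col1a1 is 2.55 to 2.7 in SkM CR and 1.25 to 1.44 in SkM control. The lowest BAT EX point in each panel is replicate 3.

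Across the 15 BAT libraries the 5 genes other than Col5a3 rose and fell together, with Pearson r on log values of 0.949 to 0.991 over their 10 pairs, and 0.900 to 0.984 without EX replicate 3. Pairs with Col5a3 had r of 0.543 to 0.686, and 0.792 to 0.826 without EX replicate 3. In SkM (14 libraries) the same ranges were 0.902 to 0.992 and 0.517 to 0.71. Libraries of a group share their treatment. Within groups, as deviations from the group means, the 5 genes had r of 0.921 to 0.993 in BAT, which became 0.217 to 0.835 (median 0.557) without EX replicate 3, and of 0.735 to 0.982 in SkM. Pairs with Col5a3 had r of 0.131 to 0.204 in BAT (−0.148 to 0.0407 without that library) and 0.401 to 0.693 in SkM. The genes most like the mean z-score of the 6 members in BAT were Mmp2 (r = 0.988), Mmp14 (0.981), Col6a1 (0.976), Angptl1 (0.969) and Npnt (0.965) of 11896 genes ranked. Without EX replicate 3 they were Sparc (0.977), Mmp2 (0.977), Clic4 (0.971), Hspa12a (0.970) and Col6a2 (0.970). In SkM they were Col6a1 (0.976), Col6a2 (0.975), Col15a1 (0.961), Dpysl3 (0.951) and Acad11 (0.951) of 11673.

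Genes that act on fibrillar collagen were read from 8 lists, for CR against control. Of 4 other fibrillar collagens, 2 were tested in BAT, where Col11a2 rose (log2 1.02, adjusted p = 0.00289) and Col27a1 fell (−0.69), and 3 in SkM, where Col11a2 rose (1.74, adjusted p = 0.00130) and Col24a1 fell (−0.91). Of 10 genes listed as fibril-associated collagens, 3 of 6 tested were lower in BAT and 3 of 8 in SkM with 1 higher. The 3 lower in each tissue were the beaded-filament genes Col6a1, Col6a2 and Col6a3. They fell by 0.83, 1.09 and 1.13 in BAT and by 1.0, 1.40 and 1.05 in SkM. The others tested in BAT, Col12a1, Col14a1 and Col16a1, were not called (adjusted p = 0.220, 0.416 and 0.216). Of 13 fibril-binding proteins, 4 of 11 tested were lower in BAT, Sparc (−0.69) and Ogn (−0.78) among them, and 3 of 12 in SkM, which were Sparc (−0.89), Fn1 (−1.03) and Lum (−0.60).

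Of 15 folding and hydroxylation genes, 1 of 14 tested was lower and 1 higher in BAT, where 6.86% and 3.87% of all genes were, and 1 of 14 was lower in SkM, against 5.32% of all genes. Serpinh1, the collagen chaperone, fell by 0.60 in BAT and 0.71 in SkM, while P4ha2, a prolyl hydroxylase subunit, rose in BAT (0.75, adjusted p = 0.0369) and was at −0.42 in SkM, under the fold minimum. Of 13 processing and crosslinking genes, 5 of 9 tested were lower in BAT, and in SkM 3 of 10 were lower and 1 higher. Pcolce, which speeds the trimming of procollagen ends, fell by 0.63 and 0.62, and the crosslinking enzymes Loxl1 and Loxl2 fell by 1.26 and 1.16 in BAT and by 1.0 and 0.85 in SkM. Of 10 receptors, 2 of 7 tested were lower in BAT and 1 in SkM, Itga11 (−1.03). Of 9 breakdown genes and inhibitors, 4 of 6 were lower and 1 higher in BAT, with Mmp14 at −1.44 and Mmp2 at −0.79, and 1 of 5 was lower and 1 higher in SkM, Mmp2 (−0.83) and Timp3 (0.85). TGF-beta is a main inducer of collagen genes. Of its 14 listed genes 2 were lower in BAT, Ltbp1 (−0.88) among them, and 0 of 13 tested passed in SkM, where Tgfb3 (−0.55), Tgfb1 (−0.58) and Tgfbr1 (0.44) had an adjusted p under 0.05 but not the fold.

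**Figure D4:**
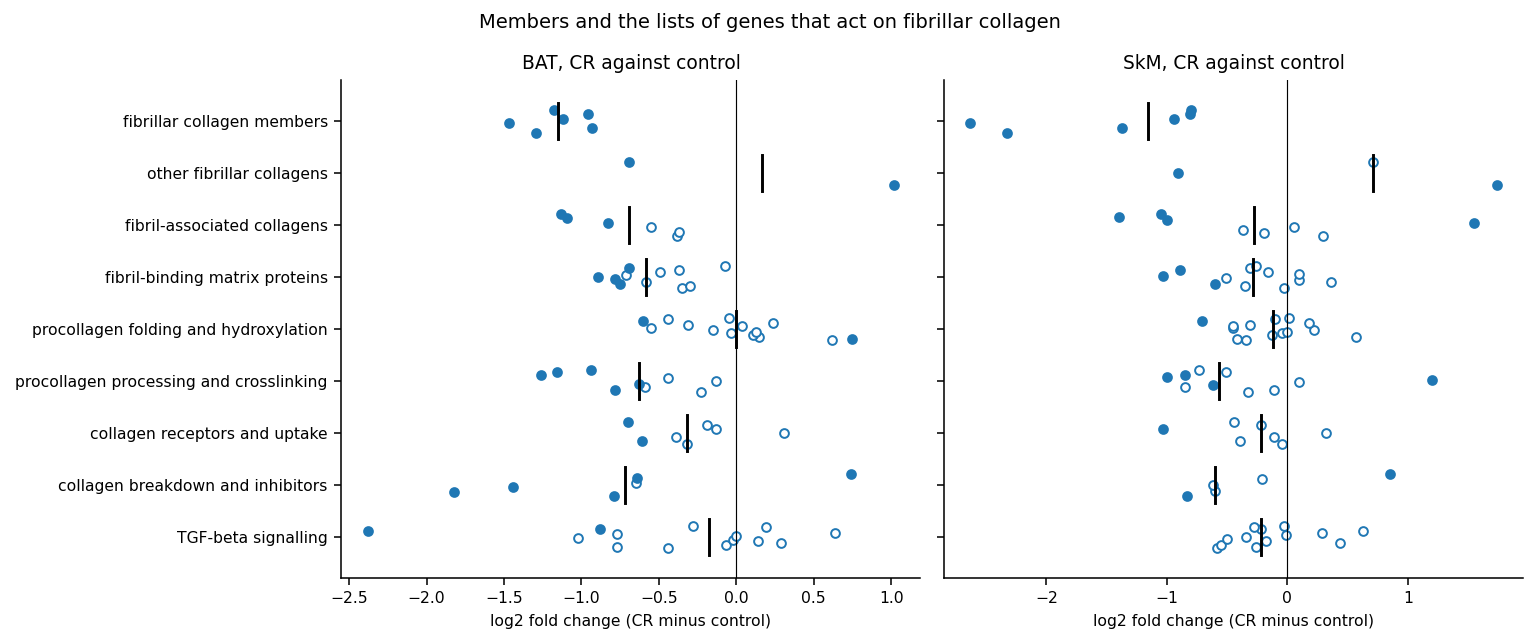
Log2 fold changes of CR against control for the 6 tested members and for the tested genes of 8 lists, in BAT (left) and SkM (right). Each circle is a gene, filled where it passed the test, and the bar is the list's median. The members' medians are −1.15 in both tissues, and the TGF-beta list has 2 filled circles in BAT and none in SkM.

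Markers of other cells were read beside these results. Fibroblast markers summed to 593 to 672 CPM in control BAT and 542 to 619.6 CPM in CR, with 3 of 10 called lower (Thy1 −0.92, Cd34 −0.60, Fap −0.77), and to 481 to 647 CPM and 398 to 568 CPM in SkM, with 1 of 10 lower (Thy1 −1.67). Gsn made up most of these sums (529 ± 43.9 CPM in control BAT and 491 ± 27.5 in CR), and the median log2 fold change of the 10 genes was −0.45 in BAT and −0.47 in SkM. Smooth muscle and pericyte markers summed to 349.8 to 399 CPM in control BAT and 246 to 269 CPM in CR (3 of 7 lower), endothelial markers to 344 to 389.7 and 249.9 to 321 CPM (0 of 6 called) and macrophage markers to 49.4 to 53.8 and 25.8 to 42.8 CPM (2 of 6 lower). In SkM endothelial markers summed to 252 to 315 CPM in control and 157 to 198 CPM in CR, with 3 of 6 lower. There 2 of 7 smooth muscle and pericyte markers and 0 of 6 macrophage markers were called lower. Muscle fibre markers in BAT ranged from 2.92 to 5801 CPM over the libraries with 0 of 10 called in CR. Brown adipocyte markers were lower for 2 of 8 in BAT, Ucp1 (−1.02) and Plin1 (−0.67), and for 1 of 5 tested in SkM. Of the 10 muscle fibre markers 2 were higher in SkM. Tendon markers had 0 of 2 called in BAT and 1 of 6 lower in SkM (Thbs4, −0.81), mesothelial markers 1 of 1 higher in BAT (Lrrn4, 1.38) and 0 of 1 in SkM, and Schwann cell markers 0 of 5 in each tissue. Up to 5 of the 6 mesothelial markers were at 0 in a BAT library, so Lrrn4 alone does not stand for that cell type. The part of these cells in the collagen results was not tested, apart from the muscle and tendon scores.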

How the data were processed

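RNA-seq counts of 15 BAT and 14 SkM libraries were used. The authors trimmed paired-end reads, mapped them to mm10 with STAR (2.7.10a) and quantified genes with RSEM (the version differs between the methods and the notes), and deposited 1 table of expected counts. These were rounded to whole numbers. Each comparison was fitted on its 2 groups with edgeR (4.0.16, R 4.3.3): filterByExpr, TMM, robust quasi-likelihood F-test and Benjamini-Hochberg adjustment over all genes tested, with a call at adjusted p under 0.05 and a fold over 1.5. Differences of effects were interaction terms on all groups concerned. CPM values are counts scaled to the library total after its adjustment by TMM within each tissue. Lists, cell markers, and the rule for named genes (all members, up to 3 genes per list and tissue by smallest p, 5 genes most like the members) were chosen with earlier results of these data known. Replicate numbers were checked for pairing by the correlation of deviations from group means, which did not show that they pair the samples. DESeq2 (1.42.0), other filters, normalizations, covariates, and leaving out each replicate were alternatives. Unmapped sample columns numbered 0. P-values measure the spread between these libraries. Some symbols had been turned into dates by spreadsheet software (27), none of them a member. A gene that the rule for named genes would give is not reported here.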

Additional observations from a re-analysis of the deposited data

Results flagged for a closer look

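Within groups of 4 libraries, 35 tests for a library far from its fellows gave 8 results past Dixon's critical value. Each test passes by chance about 1 in 20 times, but the 35 were not independent, since the genes share their libraries. The count of 8 therefore cannot be set against that rate. The 6 in BAT EX replicate 3 were Col1a1 at 355 CPM, Col1a2 at 346 CPM, Col3a1 at 461 CPM, Col5a1 at 61.5 CPM, Col5a2 at 51.4 CPM and Col11a1 at 3.58 CPM. Col5a3 did not stand apart in that library, and the other 2 results were its values in other libraries, 14.3 CPM in BAT CR replicate 2, above its fellows, and 15.8 CPM in BAT EX replicate 2, below them.

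The CR effect in sedentary mice differed between tissues for Col1a1, with a BAT-minus-SkM difference of 1.05 on the log2 scale, and for Col3a1, with 1.18, both by the interaction term of edgeR over all genes.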

How the results depend on the processing

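In CR against control 6 of 6 members were called whichever library was left out, except that Col5a3 was lost in SkM without control replicate 3. A single fit on all BAT groups gave 2 calls there, and 6 without EX replicate 3, an alternative added after the data were seen. In BAT CREX against EX, the count of 0 became 3 with DESeq2, 5 in 1 fit on all groups, 5 in that fit without EX replicate 3, 1 with the muscle marker score and 1 with no fold minimum, and it ran from 0 to 5 when a library was left out, with 5 only without EX replicate 3. In SkM CREX against EX, 4 calls became 0 with the tendon marker score, which took the calls over all genes from 1163 to 0 but left the log2 fold changes of the 4 at −2.18, −1.64, −2.21 and −0.80. The count ran from 2 (without CREX replicate 2) to 6 (without CREX replicate 1, with Col5a1 and Col11a1 added) when a library was left out. Col11a1 had 2 to 3 counts in CREX and passed the filter only through its high EX libraries. Its call therefore adds no support. The cause of these changes in the count was not tested.

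Signs turned only for values that did not pass. With the muscle score, Col1a1 in BAT CREX against CR was 0.021. With the tendon score, EX against control in SkM was −0.062 for Col1a1, 0.12 for Col5a1 and 0.00021 for Col5a2, and CREX against CR was −0.043 for Col1a2 and −0.047 for Col5a2, which was −0.01 with at least 10 counts in every library. Leaving out a library gave −0.13 to 0.0056 for Col1a1 in BAT CREX against CR. In the BAT interaction it gave −1.54 to 0.017 for Col1a2, −1.06 to 0.01 for Col3a1, −1.10 to 0.018 for Col5a1 and −0.89 to 0.25 for Col5a2, each highest value being without EX replicate 3. In SkM it gave −0.045 to 0.14 for Col5a3 in CREX against EX, −0.069 to 0.26 for Col1a1, −0.10 to 0.12 for Col5a1 and −0.11 to 0.10 for Col5a2 in EX against control. In CREX against CR of SkM it gave −0.093 to 0.44 for Col1a1, −0.22 to 0.27 for Col1a2, −0.065 to 0.44 for Col3a1 and −0.19 to 0.14 for Col5a2. The tissue difference of Col5a1 in sedentary mice ran from −0.31 to 0.036.

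When replicate numbers were fitted as blocks (replicate block), Col5a1 in SkM CREX against EX was −0.67 (adjusted p = 0.0488) and called, giving 5 members in place of 4, and the counts of members called in the other blocked comparisons did not change. Over all genes the block took 1163 calls to 569 there and 1 call to 51 in BAT CREX against CR. The number does not pair the samples, since pair correlations of deviations ran from −0.462 to 0.042 in BAT CR against control and −0.0871 to 0.225 in SkM CREX against EX, and in no comparison did every library correlate best with its own number (0 of 6 and 3 of 6 in those). Col11a1 was limited by depth, with 0 to 19 counts in every library but BAT EX replicate 3, which had 87. Over all genes DESeq2 called 37 in BAT EX against control (edgeR 0), 28 in BAT CREX against CR (1), 50 in SkM EX against control (10) and 36 in SkM CREX against CR (0).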
